A study of Homo sapiens with 6 samples.

Results

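The 39 genes described here act in DNA repair and in the DNA damage checkpoint. They were chosen by name, as the rows of the authors' table that carry these gene names, out of 30949 genes in all. By role they comprise 14 genes of homologous recombination, 10 Fanconi genes, 6 genes of end joining, 2 of mismatch repair, 6 of checkpoint signalling, and POLQ, the polymerase of theta-mediated joining. The cells were wild-type human astrocytes whose parental line is WTC11, an established induced pluripotent stem cell line, grown as aggregates in suspension within capsules of alginate. For 48 hours 3 cultures received vehicle only and 3 received ITC, that is, the 3 proteins interleukin 1alpha, TNFalpha and complement c1q. All 6 cultures share the one parental line, and ITC was given as a mixture, so the part of each protein cannot be told apart. The series description speaks of separate capsule batches, each shared out over both treatments. It does not tie a library to a batch, so the p-values below measure the spread between libraries.

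Cells mend double-strand breaks mainly along competing routes. Homologous recombination copies the sister chromatid, needs a replicated genome and resected DNA ends, and is used by dividing cells, whereas non-homologous end joining ligates the ends directly and works in dividing and resting cells alike. The Fanconi proteins detect and unhook crosslinks between DNA strands at stalled replication forks and pass them on to recombination, and mismatch repair corrects errors left by the replicating polymerases. Checkpoint kinases sense breaks and stalled forks and hold the cell cycle. Many genes of recombination and replication are transcribed under E2F factors and the DREAM repressor complex, which tie them to the cell cycle.

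The vehicle libraries held 17398921 to 29941685 counts and the ITC libraries 17808993 to 19327421. Of 16756 genes tested across the whole table, 39.4% were called at an adjusted p under 0.05 by edgeR's quasi-likelihood test, 20.4% higher and 19.0% lower in ITC, with a median log2 change of -0.01. All 12 astrocyte markers examined were detected, 4 of them higher, 7 lower and 1 uncalled. The summed level of the list was 4233 to 5114 CPM in vehicle and 5496 to 6998 CPM in ITC, and VIM, SOX9 and CD44, with the highest levels, rose by 0.51 ± 0.16, 0.85 ± 0.21 and 1.28 ± 0.17. Among the markers that fell, named after their values were seen, AQP4 fell by 3.07 ± 0.18 and S100B by 1.04 ± 0.16. CPM here is the usual depth-scaled count, with TMM factors, and a change is given on the log2 scale, ITC relative to vehicle, with its SE and n = 3 libraries in each group throughout.

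Of the 39 genes, 38 had enough counts to be tested, 21 of these (55.3%) were lower in ITC, 0 were higher and 17 were not called, against 19.0% and 20.4% of all tested genes. The count of members higher was also 0 at an unadjusted p under 0.05, with DESeq2 and with limma-voom. It was 2 when the replicate number was fitted as a block, from XRCC6 and LIG4. By at least 2-fold, 19 members were lower, a step that 11.4% of all tested genes made. Every ITC library lay below every vehicle library for 25 members, as for 24.0% of all tested genes, and above every vehicle library for 1 member, as for 26.1% of all tested genes. The members' median log2 change was -0.88, and their changes ran from -5.32 for BRIP1 to 0.36 for XRCC6. Homologous recombination and Fanconi genes made up most of the falls, with 17 of 24 lower (70.8%), 0 higher and a median of -1.96. Among end joining and mismatch repair genes 1 of 7 tested was lower (14.3%) and 0 were higher, with a median of 0.05. These classes differed when taken apart. End joining had 0 of 5 lower and a median of 0.22, and mismatch repair had 1 of 2 lower and a median of -0.25.

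**Figure D1:**
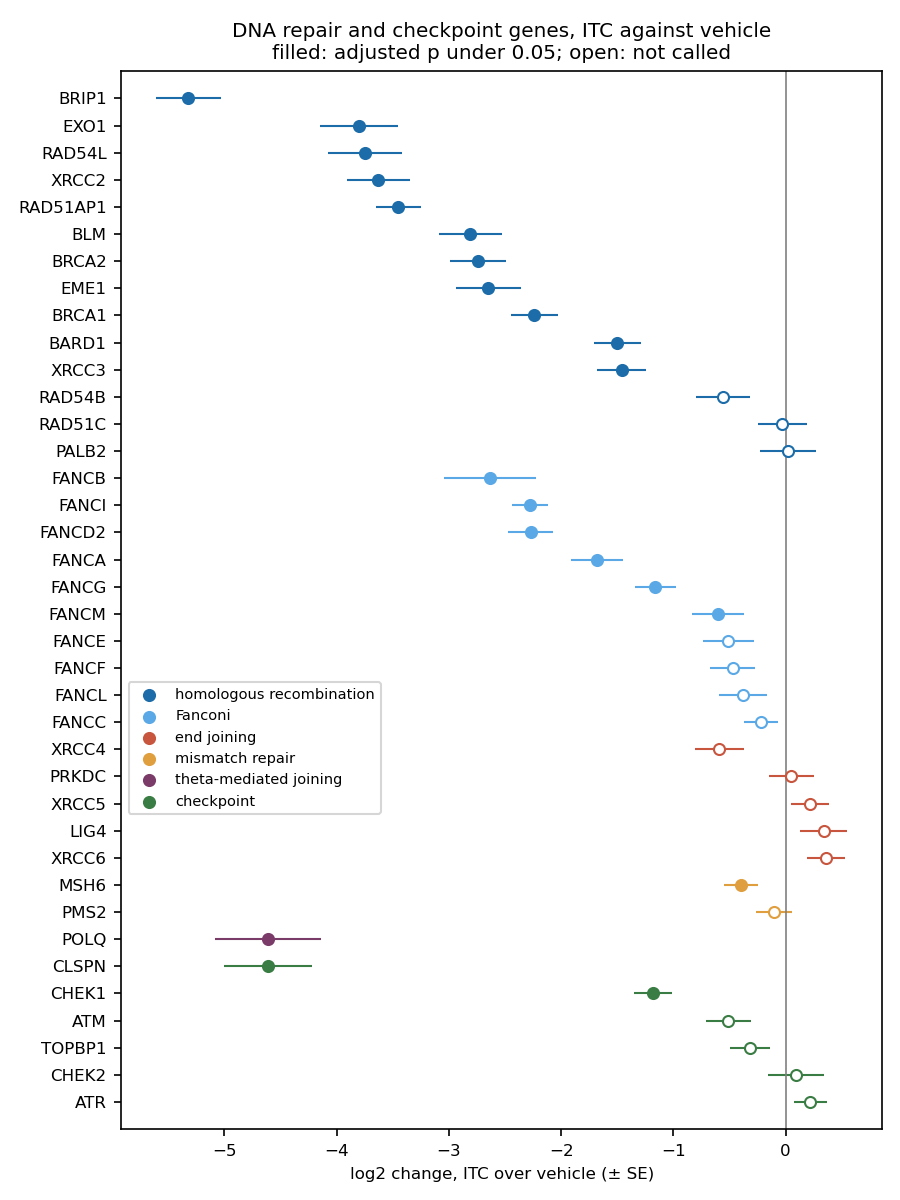
Log2 change of ITC over vehicle (x axis) for each of the 38 tested genes (y axis), with bars of 1 SE, coloured by class; filled points passed an adjusted p of 0.05 and open points did not. The homologous recombination genes reach from -5.32 to 0.02 and the end joining genes from -0.59 to 0.36.

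Markers of dividing cells moved in the same libraries. All 18 markers of that list were lower in ITC, with a median of -3.71 and a range from -6.37 to -0.79. Their summed level was 1245, 1185 and 1072 CPM in vehicle replicates 1, 2 and 3 and 207, 194 and 195 CPM in the ITC replicates. TOP2A, the topoisomerase of dividing cells, had 196, 186 and 220.2 CPM in vehicle and 2.67, 3.11 and 5.08 CPM in ITC. CENPF, a centromere protein, and PCNA, the sliding clamp of replication, fell by 3.71 ± 0.20 and 0.79 ± 0.15. Neuronal markers were also lower, with 5 of 8 tested called and a summed level of 815 to 1059 CPM in vehicle and 273 to 373 CPM in ITC. Among them MAP2 fell by 1.56 ± 0.17, DCX by 2.21 ± 0.26 and SNAP25 by 1.19 ± 0.17. The progenitor markers SOX2 and NES fell by 0.50 ± 0.16 and 0.59 ± 0.19, while CSPG4 and MBP of the oligodendrocyte lineage rose by 1.35 ± 0.17 and 1.64 ± 0.21. Of the 8 mesenchymal markers 2 were higher, 3 lower and 3 uncalled, from -3.58 for PDGFRB to 2.64. Of those with the highest levels TAGLN rose by 0.75 ± 0.17, and COL1A1 and COL1A2 were not called. Microglial markers were low in both groups, and their sum was 0.603 to 0.891 CPM in vehicle and 1.72 to 2.83 CPM in ITC. The higher sum in ITC came from ITGAM and CSF1R. ITGAM rose by 3.26 ± 0.66 (edgeR adjusted p = 0.00124), from 11 counts over vehicle to 75 over ITC, and CSF1R had 16 and 42. The other markers with a row had fewer counts in ITC: CX3CR1 had 15 and 3, TMEM119 had 5 and 3, and AIF1 and SPI1 each had 4 and 0. P2RY12 and PTPRC had no row in the table used here. In bulk RNA, fewer dividing cells and less of these transcripts per cell cannot be told apart, and the part of these markers in the falls below was not tested.

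The promoters of some members carry letters that E2F factors or the DREAM complex are known to recognise. Windows from RefSeq on GRCh38.p14, reaching from 250 bases before to 50 bases after the transcription start, were found for 35 of the 39 members, 52 windows in all. Both strands were searched for the E2F letters TTTCCCGC or TTTGGCGC, for the cell cycle homology letters TTTGAA or TTCGAA, and for CCAAT, and no motif holds another. The E2F letters stood in 6 of 52 member windows (11.5%), against 2.3% of 35116 windows of all genes. Cell cycle homology letters stood in 7.7% of member windows and 16.4% of all windows, and CCAAT in 48.1% and 34.6%. E2F letters were found in 4 of the 28 windows of members that fell (14.3%), those of CLSPN, FANCD2, XRCC2 and MSH6, and in 2 of the 22 windows of members not called (9.1%), those of FANCC and XRCC6. Cell cycle homology letters were found in 2 of the 28 windows of members that fell, those of POLQ and BRIP1. They were also found in 2 of the 22 windows of members not called, those of FANCC and ATM. CCAAT was found in 14 of the 28 and in 11 of the 22 windows, so neither motif was more frequent among members that fell. A match is a description of letters and not a bound site. The windows below were chosen for the letters they hold: CLSPN, XRCC2, FANCD2 and POLQ as genes that fell, and XRCC6 as a gene not called. The windows of EXO1, RAD54L and FANCB, which also fell, hold none of the E2F or cell cycle homology letters, and that of BRIP1 holds no E2F letters. Capitals mark the E2F letters on either strand, and in POLQ the cell cycle homology letters.
CLSPN, chr1:35769929-35770228, minus strand: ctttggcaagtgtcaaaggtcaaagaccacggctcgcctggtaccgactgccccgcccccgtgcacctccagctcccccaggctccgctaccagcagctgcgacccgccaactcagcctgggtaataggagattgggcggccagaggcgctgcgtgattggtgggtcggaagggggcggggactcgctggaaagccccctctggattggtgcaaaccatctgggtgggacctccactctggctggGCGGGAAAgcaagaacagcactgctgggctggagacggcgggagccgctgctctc
FANCD2, chr3:10026187-10026486, plus strand: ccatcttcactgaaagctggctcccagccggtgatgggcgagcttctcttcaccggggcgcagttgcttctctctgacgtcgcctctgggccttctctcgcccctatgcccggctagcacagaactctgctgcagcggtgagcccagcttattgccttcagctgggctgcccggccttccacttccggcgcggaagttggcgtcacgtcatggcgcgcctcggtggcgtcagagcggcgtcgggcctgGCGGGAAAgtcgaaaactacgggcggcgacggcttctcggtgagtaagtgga
XRCC2, chr7:152676092-152676391, minus strand: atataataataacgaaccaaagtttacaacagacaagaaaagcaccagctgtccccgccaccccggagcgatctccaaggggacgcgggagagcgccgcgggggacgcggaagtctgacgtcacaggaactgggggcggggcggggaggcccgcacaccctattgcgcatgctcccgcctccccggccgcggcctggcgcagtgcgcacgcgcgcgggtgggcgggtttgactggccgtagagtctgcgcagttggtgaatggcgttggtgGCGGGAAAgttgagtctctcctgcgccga
POLQ, chr3:121545939-121546238, minus strand: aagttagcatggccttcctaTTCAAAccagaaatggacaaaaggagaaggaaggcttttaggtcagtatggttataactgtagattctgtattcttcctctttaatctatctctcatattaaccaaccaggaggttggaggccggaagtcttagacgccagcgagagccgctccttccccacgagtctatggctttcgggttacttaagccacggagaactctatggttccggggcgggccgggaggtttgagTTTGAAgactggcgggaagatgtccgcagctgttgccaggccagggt
XRCC6, chr22:41621045-41621344, plus strand: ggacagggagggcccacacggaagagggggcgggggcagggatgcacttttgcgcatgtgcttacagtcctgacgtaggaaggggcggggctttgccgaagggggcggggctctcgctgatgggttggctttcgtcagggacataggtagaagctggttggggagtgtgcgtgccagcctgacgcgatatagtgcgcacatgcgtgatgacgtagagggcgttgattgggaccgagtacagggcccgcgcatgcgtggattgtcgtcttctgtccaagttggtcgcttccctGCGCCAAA

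In CLSPN, FANCD2 and XRCC2 the same 8 letters, GCGGGAAA as read along the gene, lie close to the start of transcription, while in XRCC6 the match is GCGCCAAA at the end of the window. POLQ has TTCAAA far upstream and TTTGAA just downstream of its start, and none of the E2F letters searched. ATM, a gene not called, has TTTGAA just upstream of the start in a window not printed here.

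The homologous recombination genes showed the widest range of any class, and 11 of 14 were lower in ITC, each by at least 2-fold. The class median was -2.69. BRCA1, a ubiquitin ligase subunit that promotes the resection of broken ends (chr17:43044295-43170245), was at 29.8, 33.1 and 31.1 CPM in vehicle and 4.55, 7.55 and 7.67 CPM in ITC. It fell by 2.24 ± 0.21 on the log2 scale (edgeR adjusted p = 6.5e-07), a 4.74-fold difference, and the groups were far apart. Its partner in the ligase, BARD1, fell by 1.5 ± 0.21, from 22.7 ± 0.885 to 8.01 ± 2.16 CPM (SD). BRCA2, a mediator of strand exchange on resected DNA, fell by 2.74 ± 0.25, from 14.8 ± 1.31 to 2.23 ± 0.789 CPM (SD). PALB2, the protein that links BRCA2 to BRCA1, was at 9.37, 13.6 and 11.2 CPM in vehicle and 7.22, 12.7 and 14.6 CPM in ITC. The PALB2 groups overlapped, the change of 0.02 ± 0.25 was not called (edgeR adjusted p = 0.959), and its sign turned under other scalings and without vehicle replicate 1 (-0.12), vehicle replicate 3 (-0.04), ITC replicate 2 (-0.05) or ITC replicate 3 (-0.17).

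BRIP1 had the largest fall of all 38 tested members. This helicase, which BRCA1 binds (chr17:61681266-61863521), was at 12.9, 16.4 and 18 CPM in vehicle and at 0.364, 0.444 and 0.354 CPM in ITC, from 1172 counts over the vehicle group and 20 over the ITC group. The fall of 5.32 ± 0.29 (edgeR adjusted p = 2.81e-09) is 40.0-fold, and no vehicle library came near the ITC range.

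The accessory factors of strand exchange were split. RAD51AP1, a stimulator of strand exchange (chr12:4538798-4560048), was at 24, 28.3 and 32.8 CPM in vehicle and 2.79, 2.50 and 2.48 CPM in ITC, and fell by 3.45 ± 0.20 (edgeR adjusted p = 6.55e-09). XRCC2, an accessory factor of recombination (chr7:152644779-152676165), was at 9.37, 11.9 and 12.8 CPM in vehicle and 0.910, 1.11 and 0.708 CPM in ITC, and fell by 3.63 ± 0.28 (edgeR adjusted p = 8.88e-08). For both genes the ITC libraries lay close together and far below the vehicle libraries. RAD51C, a related protein that sits in complexes with XRCC2 and with XRCC3, was at 6.63, 9.01 and 9.91 CPM in vehicle and 7.40, 8.16 and 9.56 CPM in ITC. Its ITC values lay inside the vehicle range, and the change of -0.03 ± 0.22 was not called (edgeR adjusted p = 0.934), with a sign that turned without vehicle replicate 3 (0.06) or ITC replicate 1 (0.07). XRCC3 fell by 1.46 ± 0.22, from 14.8 ± 1.93 to 5.34 ± 1.28 CPM (SD). Of the exon bases of XRCC3, 76.7% overlap KLC1 on the opposite strand, and KLC1 rose by 0.50 ± 0.15. Whether reads were counted by strand is not given in the sources used here, so the level of XRCC3 is uncertain.

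The RAD54 motor proteins and the nucleases followed. RAD54L, a DNA translocase of strand invasion (chr1:46247688-46278473), was at 7.28, 6.50 and 5.36 CPM in vehicle and 0.364, 0.50 and 0.531 CPM in ITC. It fell by 3.75 ± 0.33 (edgeR adjusted p = 4.55e-07), with groups far apart, and 25.1% of its exon bases overlap LRRC41, which was not called (0.16 ± 0.17). RAD54B, its paralog, was at 6.17, 6.66 and 7.40 CPM in vehicle and 3.94, 4.16 and 5.67 CPM in ITC. Every RAD54B value in ITC lay below vehicle, yet the change of -0.56 ± 0.24 was not called (edgeR adjusted p = 0.0754, and 0.0463 without ITC replicate 3). RAD54B is uncertain, as 59.1% of its exon bases are shared with FSBP on the same strand. EXO1, a nuclease of end resection and of mismatch repair (chr1:241847967-241895148), was at 12.6, 11.9 and 7.52 CPM in vehicle and 0.364, 1.00 and 0.885 CPM in ITC. It fell by 3.80 ± 0.35 (edgeR adjusted p = 6.43e-07), although vehicle replicate 3 was lower than the other vehicle libraries. BLM, the helicase that dissolves recombination intermediates, fell by 2.81 ± 0.28, and EME1, a subunit of a structure-specific nuclease, fell by 2.65 ± 0.29.

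**Figure D2:**
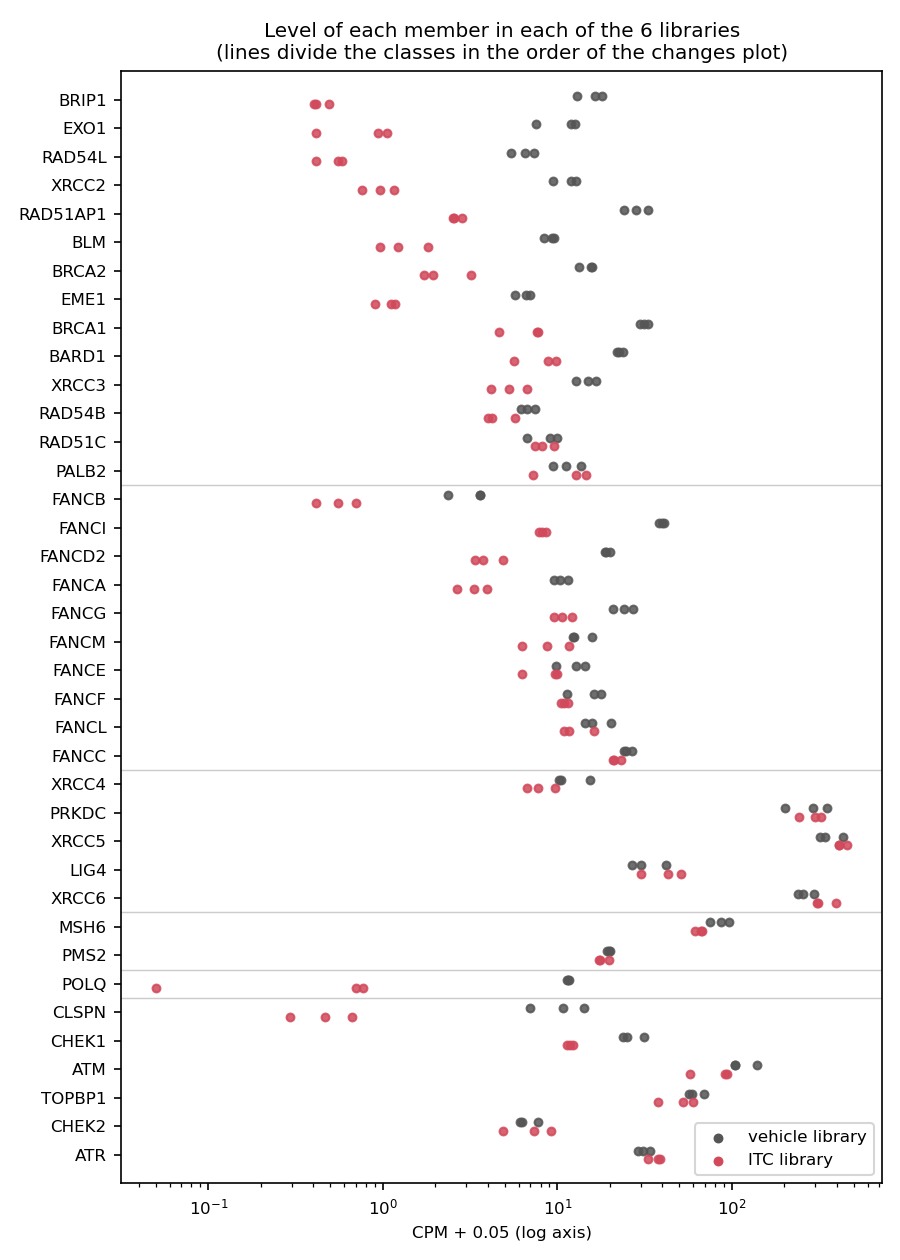
CPM plus 0.05 on a log axis (x) for each of the 38 tested genes (y) in the 3 vehicle and the 3 ITC libraries, with lines dividing the classes. BRIP1 lies between 12.9 and 18 CPM in vehicle and between 0.354 and 0.444 CPM in ITC, while the points of PALB2, RAD51C and PRKDC intermix, and POLQ in ITC replicate 1 is at 0 counts.

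All 10 Fanconi genes had a change below 0, of which 6 were called, and the class median was -0.88. FANCD2 and FANCI form the complex that is ubiquitinated at crosslinks. FANCD2 (chr3:10026414-10101930) was at 19.0, 19.9 and 18.6 CPM in vehicle and 3.34, 3.72 and 4.84 CPM in ITC, and fell by 2.27 ± 0.20 (edgeR adjusted p = 4.77e-07). FANCI (chr15:89243949-89317261) was at 39.9, 38.0 and 40.9 CPM in vehicle and 8.07, 7.83 and 8.50 CPM in ITC, and fell by 2.28 ± 0.16 (edgeR adjusted p = 3.81e-08). Both genes kept a narrow spread within each group, and the groups were far apart.

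The core complex, the ligase that marks FANCD2 and FANCI, moved by unequal amounts. FANCB, a subunit of its catalytic module, was at 2.32, 3.56 and 3.56 CPM in vehicle and 0.364, 0.50 and 0.649 CPM in ITC, and fell by 2.63 ± 0.41 (edgeR adjusted p = 1.21e-04). FANCA was at 9.51, 11.5 and 10.3 CPM in vehicle and 3.28, 2.61 and 3.90 CPM in ITC, and fell by 1.68 ± 0.23 (edgeR adjusted p = 3.99e-05). Its exons overlap ZNF276 on the opposite strand over 23.6% of their bases, which leaves its level less certain. FANCG, which binds FANCA, was at 20.9, 27.1 and 23.9 CPM in vehicle and 10.6, 12.1 and 9.50 CPM in ITC, and fell by 1.16 ± 0.18 (edgeR adjusted p = 1.17e-04). In these 3 genes no ITC library reached the vehicle range. FANCM, the translocase that anchors the complex on DNA, was at 12.4, 12.2 and 15.7 CPM in vehicle and 6.25, 8.66 and 11.6 CPM in ITC. Its call was marginal (-0.60 ± 0.23, edgeR adjusted p = 0.0489). It was lost without vehicle replicate 2 (adjusted p = 0.0548), vehicle replicate 3 (0.0923), ITC replicate 1 (0.178) or ITC replicate 2 (0.131).

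The remaining core genes were not called. FANCL, the catalytic subunit, was at 15.7, 14.3 and 20.1 CPM in vehicle and 10.8, 11.6 and 16.2 CPM in ITC (-0.38 ± 0.21, edgeR adjusted p = 0.158), with overlapping groups. FANCF was at 17.8, 16.2 and 11.3 CPM in vehicle and 10.9, 11.4 and 10.4 CPM in ITC (-0.47 ± 0.20, edgeR adjusted p = 0.0765). Vehicle replicate 3 lay within the ITC range for FANCF, and without it FANCF was called (adjusted p = 0.00621). FANCE (-0.51 ± 0.23) was likewise called only without that library among the leave-one-out fits (adjusted p = 0.0177). FANCC was at 26.8, 24.8 and 24.1 CPM in vehicle and 20.8, 21.1 and 23.0 CPM in ITC, groups that just missed each other, with a change of -0.22 ± 0.15 (edgeR adjusted p = 0.27).

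The members with the highest levels per length, XRCC6, XRCC5 and PRKDC, belong to end joining, a class of which 0 of 5 tested were called by edgeR, with a class median of 0.22. At an unadjusted p under 0.05, 1 was lower and 0 were higher, and DESeq2 and limma-voom called 0. With a replicate block in the edgeR fit, XRCC6 (adjusted p = 0.0111) and LIG4 (0.0389) were higher and XRCC4 (0.0111) was lower. XRCC5 and XRCC6 encode the Ku heterodimer that caps broken ends. XRCC5 (chr2:216107464-216206303) was at 343, 318 and 435 CPM in vehicle and 408, 413 and 459 CPM in ITC, with overlapping groups and a change of 0.22 ± 0.17 (edgeR adjusted p = 0.309). XRCC6 (chr22:41621119-41664048) was at 296, 256 and 239.8 CPM in vehicle and 396, 307 and 309.7 CPM in ITC. Every XRCC6 value in ITC lay above vehicle, but the change of 0.36 ± 0.17 was not called (edgeR adjusted p = 0.105). PRKDC, the DNA-dependent kinase that Ku recruits, was at 348, 290.0 and 200.5 CPM in vehicle and 299.8, 324 and 244 CPM in ITC. The groups overlapped, the change of 0.05 ± 0.20 was not called (edgeR adjusted p = 0.869), and its sign turned with upper quartile scaling, with library size only and without vehicle replicate 3 or ITC replicate 2.

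The ligation step showed opposite signs without a call. LIG4, the ligase, had a mean of 32.8 ± 7.94 CPM under vehicle and of 41.5 ± 10.5 CPM under ITC (SD, n = 3; 0.34 ± 0.21, edgeR adjusted p = 0.226). XRCC4, the partner that stabilises LIG4, was at 10.1, 10.5 and 15.3 CPM in vehicle and 7.65, 6.66 and 9.68 CPM in ITC, a change of -0.59 ± 0.22 that just missed the threshold (edgeR adjusted p = 0.051). All ITC values of XRCC4 lay below vehicle, and XRCC4 was called without vehicle replicate 1 (adjusted p = 0.0247) or ITC replicate 3 (0.0262). NHEJ1, the factor XLF that aligns the ends, had 3 counts over vehicle and 0 over ITC and was not tested. Its row is uncertain, since 65.4% of its exon bases are shared with AC068946.1 on the same strand.

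In mismatch repair, MSH6, which recognises single mismatches, was at 96.6, 86.3 and 75.0 CPM in vehicle and 61.1, 67.4 and 66.8 CPM in ITC. The groups did not overlap, and the fall of 0.40 ± 0.15 was called by a narrow margin (edgeR adjusted p = 0.0495). The call was lost when any library but vehicle replicate 3 was left out: without vehicle replicates 1 and 2 in turn (adjusted p = 0.155 and 0.132), and without ITC replicates 1, 2 and 3 in turn (0.112, 0.134 and 0.104). PMS2, the endonuclease subunit, was at 19.1, 19.9 and 19.7 CPM in vehicle and 17.5, 17.3 and 19.7 CPM in ITC, with overlapping groups and a change of -0.10 ± 0.16 (edgeR adjusted p = 0.635). PMS2 has pseudogene copies, so its counts are uncertain.

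The summed levels of the classes were compared per length, in the authors' FPKM. Homologous recombination and Fanconi genes together summed to 74.3, 79.2 and 75.5 FPKM in vehicle and 27.8, 31.1 and 32.3 FPKM in ITC. End joining and mismatch repair genes summed to 208, 183 and 192 FPKM in vehicle and 246, 219 and 223 FPKM in ITC. The ratio of the first sum to the second was 0.358, 0.434 and 0.392 in vehicle and 0.113, 0.142 and 0.145 in ITC, a mean of 0.395 ± 0.0381 against 0.133 ± 0.0175 (SD). The highest ITC ratio lay under the lowest vehicle ratio. Recombination and Fanconi genes thus took 25.9% ± 1.73 of the 39 genes' FPKM in vehicle and 11% ± 1.19 in ITC, and end joining genes alone took 61.2% ± 1.97 and 78.9% ± 2.36 (SD). The end joining sum rests on the Ku genes and PRKDC, with mean levels in vehicle of 82.1 FPKM for XRCC6, 68.2 FPKM for XRCC5 and 18.6 FPKM for PRKDC. The highest level among recombination and Fanconi genes was 11.3 FPKM, for RAD51AP1. As the genes were chosen by name with results of these data known, the ratio carries no p-value. The median change of end joining and mismatch repair genes changed sign without vehicle replicate 3 (-0.14), with upper quartile scaling (-0.09) and with library size only (-0.18), and it was 0.17 without vehicle replicate 1 or ITC replicate 3, whereas that of recombination and Fanconi genes was between -2.05 and -1.85 in the leave-one-out fits, -2.19 with library size only, and -0.93 and -1.74 by limma on FPKM with pseudocounts of 1 and 0.1.

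**Figure D3:**
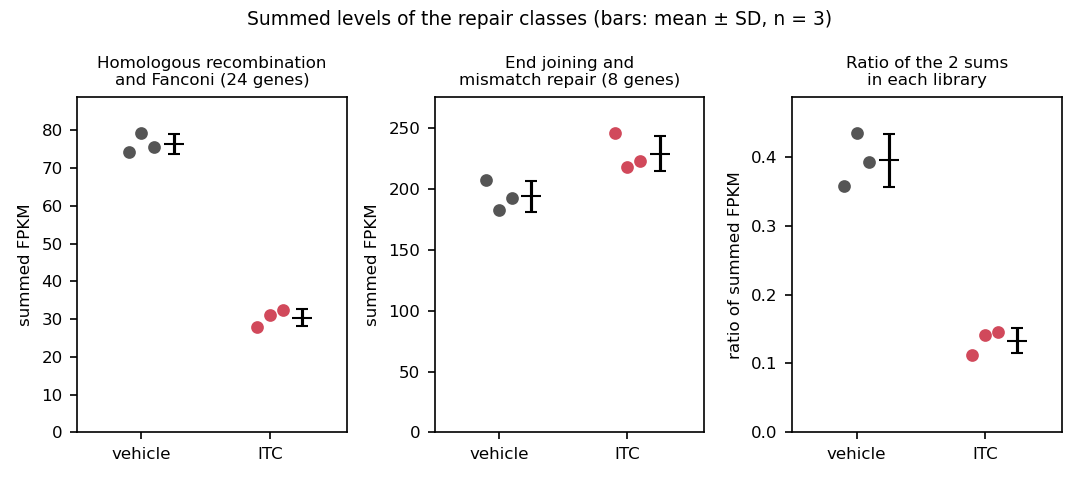
Summed FPKM (y axes) of the 24 homologous recombination and Fanconi genes, of the 8 end joining and mismatch repair genes, and the ratio of these sums, in each library, with the mean and SD of each group of 3. The ratio lies between 0.358 and 0.434 in vehicle and between 0.113 and 0.145 in ITC.

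POLQ, the polymerase that joins ends at short homologies (chr3:121431427-121546641), was lower in every ITC library than in any vehicle library. It was at 11.3, 11.6 and 11.5 CPM in vehicle and at 0, 0.722 and 0.649 CPM in ITC, from 837 counts over vehicle and 24 over ITC. It fell by 4.61 ± 0.47 (edgeR adjusted p = 1.76e-06), and ITC replicate 1 held no read of it. A count of 0 in that library allows up to 3 counts.

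Of the 6 checkpoint genes 2 were lower and 4 uncalled, with a class median of -0.41. CLSPN, or claspin, the adaptor that lets ATR activate CHEK1 (chr1:35720218-35769967), was at 14.2, 10.7 and 6.87 CPM in vehicle and 0.243, 0.611 and 0.413 CPM in ITC. It fell by 4.61 ± 0.39 (edgeR adjusted p = 2.41e-07), with 734 counts over vehicle and 22 over ITC. CHEK1, the kinase that holds the cell cycle when replication stalls (chr11:125625136-125676255), was at 23.8, 24.9 and 31.2 CPM in vehicle and 12.3, 11.3 and 11.7 CPM in ITC, and fell by 1.18 ± 0.17 (edgeR adjusted p = 6.88e-05). The vehicle libraries of CLSPN differed by more than those of CHEK1, and in both genes the groups stayed apart.

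The apical kinases and TOPBP1 were not called. ATR, the sensor of single-stranded DNA, was at 29, 30.9 and 34.0 CPM in vehicle and 32.8, 38.9 and 37.7 CPM in ITC (0.22 ± 0.15, edgeR adjusted p = 0.273, and -0.01 with library size only). TOPBP1, the activator of ATR, was at 57.0, 59.3 and 69.5 CPM in vehicle and 37.6, 52.1 and 59.4 CPM in ITC (-0.32 ± 0.18, edgeR adjusted p = 0.177). The groups overlapped in both. ATM, the kinase that responds to double-strand breaks, was at 104, 104 and 138 CPM in vehicle and 57.5, 91.5 and 94.1 CPM in ITC. All ITC values of ATM lay below vehicle, with ITC replicate 1 lowest, and the change of -0.51 ± 0.20 just missed the threshold (edgeR adjusted p = 0.0537). ATM was called without vehicle replicate 1 (adjusted p = 0.0329), without ITC replicate 3 (0.0307) and by DESeq2 (0.0404), and in 10 of 17 alternatives in all. CHEK2, the kinase downstream of ATM, had a mean of 6.66 ± 0.909 CPM under vehicle and of 7.08 ± 2.15 CPM under ITC (SD), and its change of 0.09 ± 0.25 turned sign with upper quartile scaling, with library size only and without ITC replicate 1 (-0.12). CHEK2 has pseudogene copies, so its counts are uncertain.

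Genes whose products work as partners were compared by the ratio of their counts within each library, which needs no scaling between libraries. Of 12 pairs, chosen with the values known, 9 had ratios that did not overlap between groups. Among all tested genes taken singly, every ITC library lay below every vehicle library for 24.0% and above for 26.1%. No such share was computed for pairs of other genes, so the count cannot be read as unusual. The exact two-sided permutation test cannot go below p = 0.1 with 3 against 3, and those 9 pairs reached it (adjusted over the 12 pairs, p = 0.133), so none passed 0.05. FANCI over FANCD2 was 2.10, 1.91 and 2.20 in vehicle and 2.42, 2.10 and 1.76 in ITC, a difference of 0.00 on the log2 scale. The ratio of XRCC5 over XRCC6, the Ku subunits, differed by -0.12 with overlapping groups. Both complexes thus showed intermixed ratios, as did ATM over CHEK2, which differed by -0.58. The other 9 ratios did not overlap. BRCA2 over PALB2 was 1.42, 1.14 and 1.40 in vehicle and 0.261, 0.131 and 0.215 in ITC, a difference of -2.74. XRCC2 over RAD51C was 1.41, 1.32 and 1.29 in vehicle and 0.123, 0.136 and 0.0741 in ITC, a difference of -3.60. RAD54L over RAD54B differed by -3.14, CLSPN over CHEK1 by -3.41 and BRIP1 over BRCA1 by -2.95. BARD1 over BRCA1 went the other way, from 0.757, 0.713 and 0.701 in vehicle to 1.23, 1.29 and 1.14 in ITC, a difference of 0.75. The ratio XRCC4 over LIG4 differed by -0.90, XRCC3 over RAD51C by -1.47 and ATR over TOPBP1 by 0.56, each without overlap.

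**Figure D4:**
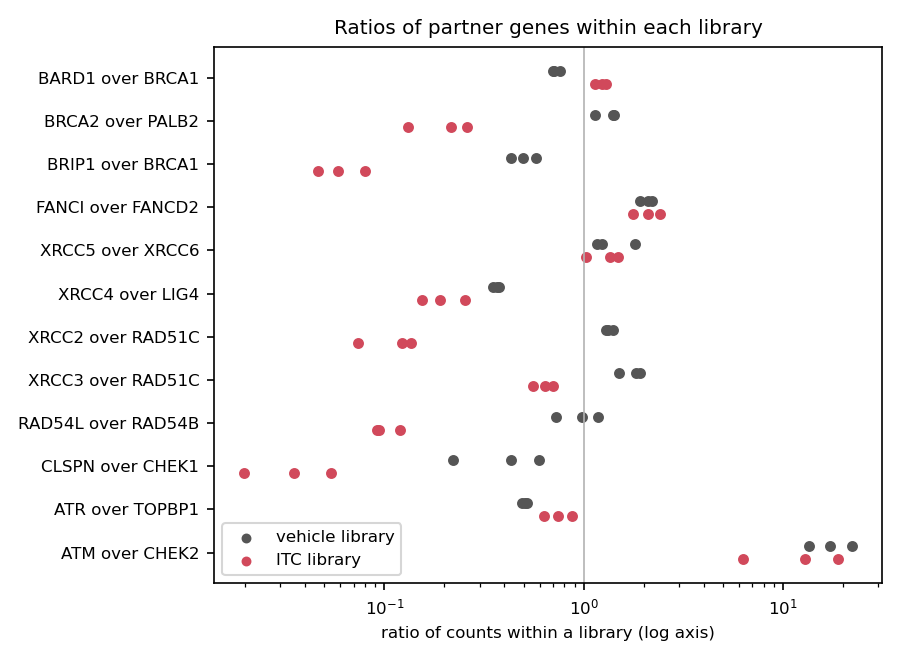
Ratio of the counts of partner genes within a library (x, log axis) for 12 pairs (y) in the 3 vehicle and 3 ITC libraries. FANCI over FANCD2 lies between 1.76 and 2.42 in all 6 libraries, while XRCC2 over RAD51C is between 1.29 and 1.41 in vehicle and between 0.0741 and 0.136 in ITC.

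Other genes of the same pathways, from lists that were not picked for how their genes moved but were drawn up with earlier results known, were read against the same 19.0% lower and 20.4% higher of all genes. Of 37 other tested genes of recombination and crosslink repair, 13 were lower, 2 higher and 22 not called, with a median of -0.32. UBE2T, the enzyme that passes ubiquitin to FANCD2, fell by 3.33 ± 0.29, DNA2, a resection nuclease, fell by 2.43 ± 0.33 and RMI2, which works with BLM, fell by 2.14 ± 0.28. WDR48 (0.12 ± 0.15) and FAAP20 (-0.14 ± 0.16), partners of the pathway's deubiquitinase and of its core complex, had the highest levels among those not called. Of 10 other end joining genes 0 were lower, 2 were higher and 8 uncalled, with a median of 0.05 (1 lower at an unadjusted p under 0.05, and 0 lower with DESeq2 or limma-voom). TDP1, which clears blocked ends, rose by 1.07 ± 0.17, from 19.6 ± 2.94 to 41.2 ± 4.82 CPM (SD), and APLF, a scaffold that binds Ku, rose by 1.39 ± 0.26, from 3.14 ± 0.372 to 8.18 ± 2.27 CPM (SD). TDP2 was not called (0.23 ± 0.14). Of 8 other mismatch repair genes, 4 were lower and 4 uncalled, with a median of -0.48. LIG1, the ligase of replication, and PMS1 each fell by 0.87, with SEs of 0.18 and 0.25. RFC1, a subunit of the clamp loader, was not called (-0.25 ± 0.15).

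Base excision repair had 6 lower, 1 higher and 12 not called of 19, with a median of -0.03. NEIL3, a glycosylase, fell by 4.93 ± 0.42, NTHL1 fell by 1.13 ± 0.21 and the flap nuclease FEN1 fell by 0.82 ± 0.15, while PARP1 (-0.02 ± 0.19) and the nuclease APEX1 (0.18 ± 0.16) were not called. Nucleotide excision repair had 2 lower, 2 higher and 15 not called of 19, with a median of 0.21. XPC, the damage sensor of that pathway, rose by 0.48 ± 0.16, its partner CETN2 fell by 0.91 ± 0.21 and GTF2H5, a subunit of the transcription factor that opens the helix, fell by 0.65 ± 0.20. RAD23B (0.21 ± 0.16) and ERCC1 (0.34 ± 0.17) were not called. Of 22 other checkpoint and damage signalling genes, 9 were lower, 2 higher and 11 not called, with a median of -0.24. CDC25C and CDC25A, phosphatases that checkpoint kinases restrain, fell by 4.27 ± 0.37 and 1.80 ± 0.20, PKMYT1, a kinase that inhibits CDK1, fell by 2.65 ± 0.27, and MDC1 (0.11 ± 0.17) and TELO2 (-0.25 ± 0.15) were not called.

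**Figure D5:**
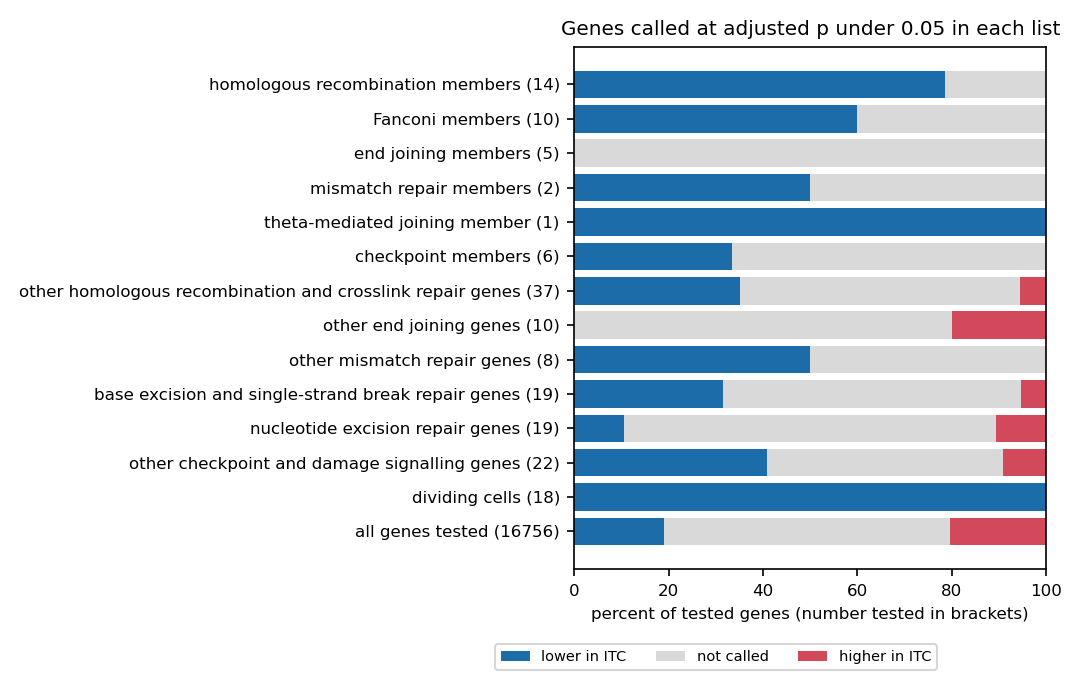
Percent of tested genes (x axis) lower, not called or higher in ITC in each class of members, in the other pathway lists, among markers of dividing cells and among all 16756 tested genes (y axis, number tested in brackets). Lower genes make up 78.6% of the homologous recombination members, 60.0% of the Fanconi members, 0% of the end joining members and 19.0% of all tested genes.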

How the data were processed

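RNA was extracted with a column kit and DNase, poly-A selected and made into libraries with NEB reagents by a service company, per the labels' protocols. The authors deposited whole-number raw counts per gene and FPKM values in one table, per the file headers. FPKM is set by the listed gene length and was used only to compare levels between genes and to sum classes. The submitters' processing notes name GRCh38 and DESeq2; no source used here gives the aligner, the counter or its strand setting.

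Groups and replicate numbers come from the sample titles. All genes of the table were fitted together with edgeR 4.0.16 in R 4.3.3 (filterByExpr, TMM, quasi-likelihood, no covariates), with Benjamini-Hochberg adjustment over 16756 genes and a threshold of 0.05. The SE is the log2 change divided by the square root of F. The pipeline was tested on simulated counts. No 2 libraries of a group were alike within sampling noise (chi-square over its degrees of freedom at least 11.5). Depth was 17398921 to 29941685 counts per library. Table columns of other samples and rows naming no gene both numbered 0.

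The members, the pathway lists, the partner pairs and the rule for named genes were chosen with earlier results of these data known. The rule gives values per library for up to 6 called members per class, by smallest p, and for up to 3 uncalled ones, by highest CPM. In each pathway list it names up to 3 called and 2 uncalled genes, and in each marker list the 3 with the highest CPM; FANCE, LIG4, XRCC4, CHEK2 and the genes that overlap members are named beside it. The markers of neural progenitors, oligodendrocyte lineage and mesenchymal cells had 7, 3 and 3 genes lower and 2, 3 and 2 higher. Exon overlaps used GENCODE 29, where all 39 members had the coordinates of the table; 4 members share over 25% of their exon bases and 19 share none. DESeq2 1.42.0, limma 3.58.1, other scalings and filters, a replicate block and leaving out each library were alternatives. Python 3.11.15 with scipy 1.17.1 and matplotlib 3.10.9 gave permutation tests and figures. Some genes that the rule takes are left out of the text.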

Additional observations from a re-analysis of the deposited data

How the results depend on the processing

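Under 17 alternatives, 19 of the 21 members called lower stayed called lower; the exceptions were FANCM and MSH6, which lost their calls in 8 and 12 settings. Scaling moved the whole distribution: the median of all genes went from -0.01 to -0.16 with upper quartile scaling and -0.24 with library size only. At an adjusted p under 0.05, 4804 genes were lower with library size only, against 3176 in the main fit. In the main fit 2082 were lower at an adjusted p under 0.01. With library size only, recombination and Fanconi genes had a median of -2.19, and 10 Fanconi genes were called lower there; on FPKM with limma the median was -0.93 with a pseudocount of 1 and -1.74 with 0.1. End joining genes called lower numbered 1 (XRCC4) with RLE, upper quartile and library size scaling, without a filter, with a filter of 1 CPM in 3 libraries and with the block. Mismatch repair genes called lower numbered 0 with RLE, without a filter, with DESeq2, limma-voom, both FPKM fits and at 0.01. For end joining and mismatch repair together, 2 were lower with upper quartile scaling, library size only, the 1 CPM filter and the block, and 0 with DESeq2, limma-voom, both FPKM fits and at 0.01; the median was -0.09 with upper quartile scaling, -0.18 with library size only and -0.05 without a filter. Checkpoint genes called lower numbered 4 with library size only and with the block.

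Leaving out each library gave 0 to 1 end joining genes, 0 to 1 mismatch repair genes and 0 to 1 of both together called lower, with a median of the latter from -0.14 to 0.17. Changes that turned sign were all uncalled and near 0. PALB2 was -0.12 with upper quartile scaling, -0.20 with library size only, -0.01 with the block, -0.02 with limma-voom, 0.00 and -0.01 with FPKM, and -0.17 to 0.28 in leave-one-out fits. In such fits RAD51C was -0.19 to 0.07, PRKDC -0.19 to 0.22 and CHEK2 -0.12 to 0.32. With upper quartile scaling PRKDC was -0.09 and CHEK2 -0.05, and with library size only PRKDC was -0.18, CHEK2 -0.15, XRCC5 0.00 and ATR -0.01. The cause of these shifts was not tested beyond the scaling itself.

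The replicate numbers are shared between groups. Libraries of the same number correlated at 0.268, 0.007 and 0.384 in their deviations from the group means. Between different numbers the correlations ran from -0.338 (vehicle 1 with ITC 3) to 0.07 (vehicle 2 with ITC 1). For replicates 1 and 3 the same-number value was the highest, and for replicate 2 it was not. The main fit took no pairs, as no source used here ties replicate numbers to batches. Whether libraries of the same number share a batch was not tested. Fitted with a replicate block, 2 members were higher, both end joining genes: XRCC6 (edgeR adjusted p = 0.0111) and LIG4 (0.0389). Members called lower rose from 21 to 28, adding RAD54B (0.0341), FANCE (0.0178), FANCF (0.035), FANCL (0.0456), XRCC4 (0.0111), ATM (0.00273) and TOPBP1 (0.0348). Genes at few counts in ITC, such as BRIP1, POLQ and CLSPN, have less certain folds than their SEs show.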
